A study of Schizosaccharomyces pombe with 6 samples.

Results

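The mug genes of fission yeast (*Schizosaccharomyces pombe*) are the genes named for being meiotically upregulated. They were taken here as the protein-coding genes of the ASM294v3 reference annotation whose symbol is mug followed only by digits, which gave 91 of the 5113 protein-coding genes on chromosomes I, II and III. Of these 91 mug genes, 46 lie on chromosome I, 23 on chromosome II and 22 on chromosome III. Genes that carry a mug number only as a second name were counted with the 5022 other coding genes. The data are ChIP-seq peak lists for 2 tagged subunits of the Ino80 chromatin remodeling complex, from 1 strain whose Hap2 carries GFP and whose Arp5 carries 3HA, grown in rich medium (1X YES). Each protein was immunoprecipitated in 2 replicates, Hap2-GFP through its GFP and Arp5-3HA through its HA tag. The 2 input samples of the series were not analysed here, and none of its samples is labelled as a strain without tags. The tags are carried together in all samples, no meiotic cells were assayed, and transcript levels were not measured here.

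The mug genes were named from their transcripts rising when cells enter meiosis, and their products range over spore wall assembly, chromosome segregation and proteins of no known role. In cells growing in rich medium most meiotic genes of fission yeast are silent, because their activators are missing and because the RNA-binding protein Mmi1 marks the few transcripts that are made for destruction. The high mobility group factor Ste11 starts the program upon starvation, and the forkhead factor Mei4 switches on the middle meiotic genes. Ino80 is a large remodeling complex that slides nucleosomes and exchanges histones, Arp5 is an actin-related protein of its core, and Hap2 is an auxiliary subunit. The comparison below asks how often these 2 subunits were found at meiotic genes in cells that do not undergo meiosis, and whether the peaks counted there lie on neighbouring genes.

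The lists hold 3758 and 4259 peaks for Hap2-GFP replicates 1 and 2 and 4206 and 4277 peaks for Arp5-3HA replicates 1 and 2 on the 3 chromosomes. A gene was counted at its promoter window, which spans the 500 bp before and the 100 bp after the annotated start, and over its body, from the annotated start to the annotated end, where a peak overlapped by at least 1 bp. Peaks of both replicates that overlapped were merged, and such a merged stretch is called a region. There were 2198 Hap2-GFP and 2033 Arp5-3HA regions. The score of a peak has no stated scale, so it is given as the percentile of the peak within its own list, and a region takes the lower of its percentiles in both lists. The summit of a region is that of its peak with the highest percentile. Shares carry 95% Wilson intervals, which cover counting error over genes only, although neighbouring genes can share a region. The depth of each sample is unknown, and 2 lists against 2 cannot reach an exact permutation p under 0.333, so the shares below are descriptions with no test.

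Sequences at 5 mug genes are printed, 4 from under Hap2-GFP regions and 1, at *mug94*, from a promoter with no region. At *mug62*, *mug70* and *mug135* the Hap2-GFP region upstream of the start covered a tRNA gene. Each is printed in the direction of the tRNA, with the tRNA gene in capitals and 20 bp on either side. They lie on the minus strand of ASM294v3, at I:703055-703167 for the valine tRNA upstream of *mug62*, at I:3047657-3047778 for the serine tRNA upstream of *mug70*, and at III:113696-113806 for the glycine tRNA upstream of *mug135*.
mug62: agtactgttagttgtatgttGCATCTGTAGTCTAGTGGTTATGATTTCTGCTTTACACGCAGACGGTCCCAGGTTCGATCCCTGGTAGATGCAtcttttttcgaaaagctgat
mug70: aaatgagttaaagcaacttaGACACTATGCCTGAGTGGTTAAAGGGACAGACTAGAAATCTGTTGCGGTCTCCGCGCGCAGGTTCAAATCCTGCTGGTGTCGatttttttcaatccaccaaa
mug135: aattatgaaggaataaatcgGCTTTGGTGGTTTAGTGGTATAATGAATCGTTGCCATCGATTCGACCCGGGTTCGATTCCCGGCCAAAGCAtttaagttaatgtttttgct

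The promoter of *mug94* is shown because it holds 3 copies of GTAAACA, the core letters bound by forkhead factors such as Mei4, within 206 bp of the annotated start. It is printed on the minus strand, on which *mug94* lies, at I:1219018-1219113, with each copy (GTAAACA or its complement TGTTTAC) in capitals. The stretch at *mug116*, on the plus strand at I:1494356-1494476, is shown as a Hap2-GFP summit with no other coding gene, tRNA gene or repeat under its region, though an annotated lncRNA gene lies there. The 10 bp around the summit of that region are in capitals.
mug94: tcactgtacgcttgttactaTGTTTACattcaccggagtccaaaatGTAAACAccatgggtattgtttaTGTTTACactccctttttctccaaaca
mug116: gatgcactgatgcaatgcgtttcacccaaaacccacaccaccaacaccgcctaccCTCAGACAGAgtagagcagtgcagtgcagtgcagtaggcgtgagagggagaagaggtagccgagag

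At promoter windows, mug genes carried Hap2-GFP peaks at about the share of other coding genes. A peak overlapped the window of 21 mug genes in Hap2-GFP replicate 1 (23.1%) against 24.2% of other coding genes, and of 22 in replicate 2 (24.2%) against 26.4%. A region found in both replicates overlapped 18 windows, 19.8% (12.9 to 29.1) of mug genes against 19.7% of the others. Arp5-3HA peaks at promoter windows were few in either set. They were at 8 mug genes in replicate 1 (8.79%) against 9.74%, at 7 in replicate 2 (7.69%) against 9.90%, and as regions at 5 mug genes, 5.49% against 7.83%. The background lay within the interval of the mug genes in all 4 lists and for both kinds of region.

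Over gene bodies the mug genes had fewer peaks of both subunits in every list. Hap2-GFP peaks lay over 26 mug genes in replicate 1 (28.6%) against 40.1% of other coding genes, and over 25 in replicate 2 (27.5%) against 44.7%. Arp5-3HA peaks lay over 27 in replicate 1 (29.7%) against 48.8%, and over 26 in replicate 2 (28.6%) against 50%. As regions, Hap2-GFP was over 16 mug genes, 17.6% (11.1 to 26.7) against 28.4%, and Arp5-3HA over 13, 14.3% (8.54 to 22.9) against 31.9%. The replicates of a protein gave similar totals from partly different genes, since 17 of the 34 mug genes with a Hap2-GFP body peak in either list had one in both, and 17 of 36 for Arp5-3HA. In all 4 lists and for both kinds of region the interval of the mug genes ended below the share of the others.

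**Figure D1:**
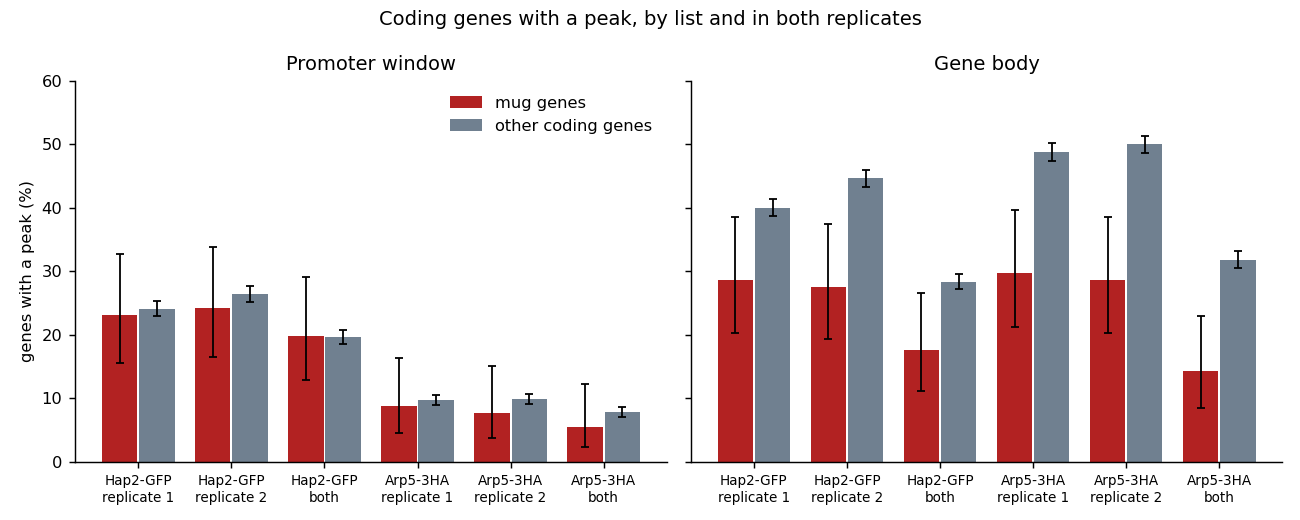
Percentage of coding genes with a peak over the promoter window (left) and the gene body (right), for the 91 mug genes and the 5022 other coding genes in each list and for regions of both replicates. Bars start at 0 and error bars are 95% Wilson intervals. At windows the bars of both sets lie close together, while over bodies the mug genes are lower in each list, as in Arp5-3HA replicate 2 at 28.6% against 50%.

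Counted by sequence rather than by gene, the subunits differed. Arp5-3HA regions covered 4.13% of the body sequence of mug genes and 11.9% of that of other coding genes. Hap2-GFP regions covered 8.64% and 8.37%. In the single Hap2-GFP lists mug genes were on the lower side, at 8.68% against 9.03% (replicate 1) and 9.04% against 10.03% (replicate 2). Long regions weigh more in this count, such as that of 3160 bp at *mug115*. Hap2-GFP regions had a median length of 570 bp over mug bodies against 450 bp over the bodies of the other coding genes.

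The mug genes were somewhat shorter and poorer in G and C than the others, with a median length of 1522 against 1776 bp and a median GC content of 36.1% against 36.8%. Among other coding genes, Hap2-GFP regions over the body went from 11.9% of genes under 34% GC to 64.4% of genes over 40% GC, and Arp5-3HA regions from 8.99% to 70.6%. Within genes under 1000 bp, Arp5-3HA regions lay over 1 of 23 mug bodies against 23.0% of the others. From 1000 to 2000 bp they lay over 5 of 41, 12.2% against 25.3%, and above 2000 bp over 7 of 27, 25.9% against 42.0%. Hap2-GFP regions lay over 17.4%, 17.1% and 18.5% of mug genes in these 3 classes, against 28.8%, 25.2% and 31.5%. In classes of GC content mug genes were also lower for both subunits up to 40% GC. From 34 to 37% GC the shares were 12.8% against 17.55% (Hap2-GFP) and 10.6% against 19.4% (Arp5-3HA). Above 40% GC only 6 mug genes remained. Of these, 4 had a Hap2-GFP region over the body (66.7% against 64.4%) and 1 an Arp5-3HA region (16.7% against 70.6%). For Hap2-GFP, the interval of the mug genes held the share of the others in every length and GC class. For Arp5-3HA it did so in all classes except genes under 1000 bp and genes over 40% GC.

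**Figure D2:**
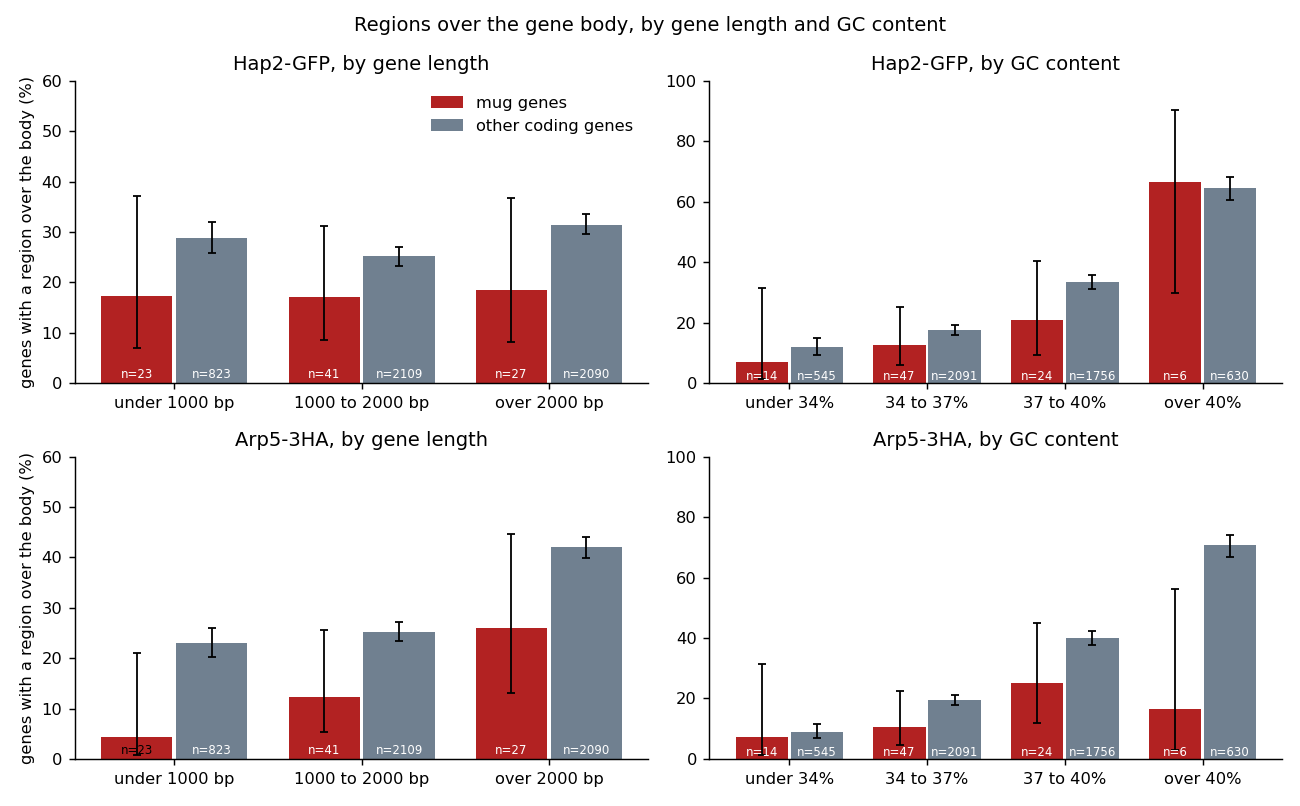
Percentage of genes with a region of both replicates over the body, by gene length (left) and GC content (right), for Hap2-GFP (top) and Arp5-3HA (bottom), with 95% Wilson intervals and the number of genes at the foot of each bar. The mug genes are below the other coding genes in every class except Hap2-GFP over 40% GC, where 4 of 6 mug genes had a region. Most intervals of the mug genes hold the share of the others.

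The lower share of Arp5-3HA was seen downstream of the start and before the end of mug genes, and not farther out on either side. The bins below are examples, given without intervals. They were counted for genes of any length, and mug genes were as short as 348 bp, so in short genes a bin can lie outside the gene. In bins of 100 bp, the share of mug genes under an Arp5-3HA region was 4.40% from 500 to 600 bp downstream of the start, against 10.6% of other coding genes. Counted from the gene end, it was 7.69% at 500 to 400 bp before the end against 17.9%, and 18.7% at 700 to 800 bp beyond it against 12.05%. Upstream of the start, mug genes were at 14.3% in the bin from 1000 to 900 bp, against 9.16%. Hap2-GFP was higher around mug genes on the upstream side, at 18.7% against 11.7% in that same bin. From 500 to 600 bp downstream of the start it was at 8.79%, against 8.78% of the others. The window from 1000 bp upstream to the start held a Hap2-GFP region at 28 mug genes (30.8% against 24.9%) and an Arp5-3HA region at 17 (18.7% against 12.5%).

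**Figure D3:**
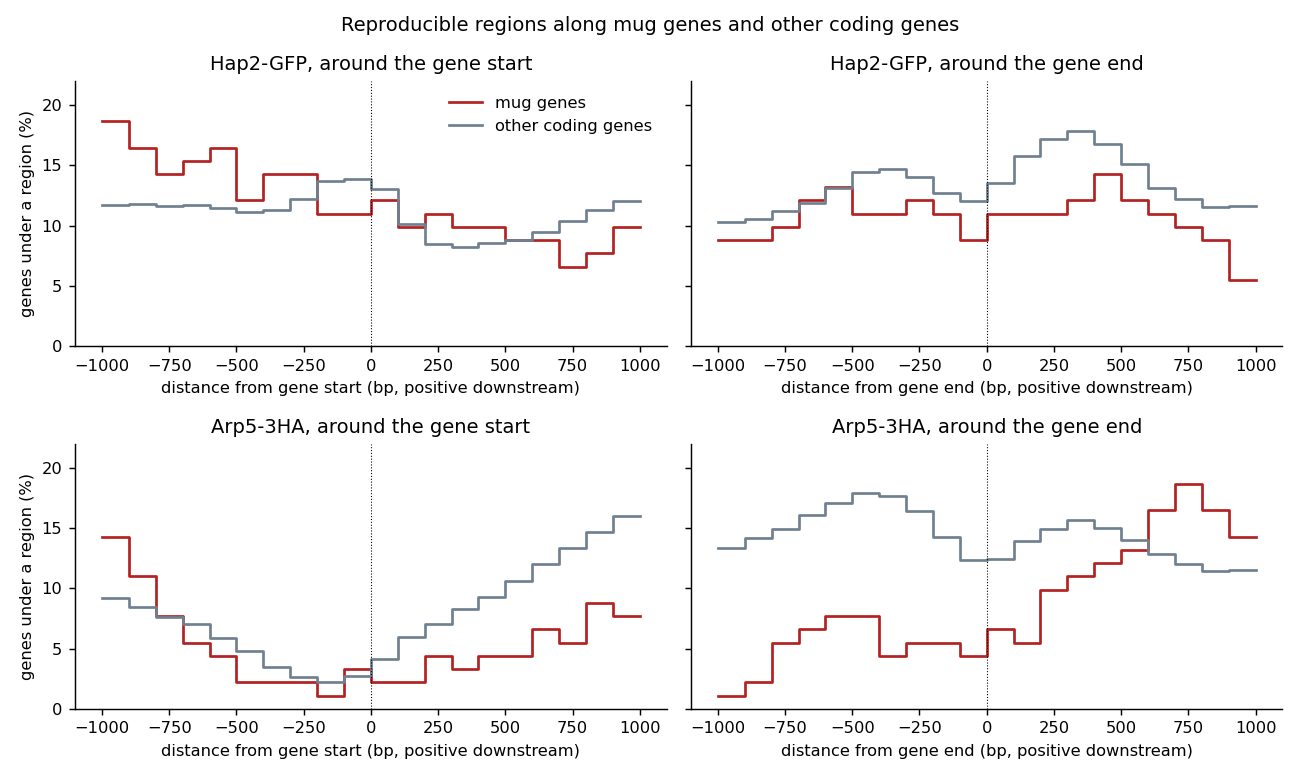
Percentage of genes under a region of both replicates in 100-bp bins from 1000 bp before to 1000 bp after the gene start (left) and the gene end (right), for Hap2-GFP (top) and Arp5-3HA (bottom). Downstream of the start and up to the gene end the Arp5-3HA curve of mug genes stays below that of other coding genes, and it is above farther out, at 18.7% against 12.05% from 700 to 800 bp beyond the end.

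The coding genes next to mug genes had shares close to the background. Of the 174 coding neighbours that are not mug genes themselves, 31.6% (25.2 to 38.9) had a Hap2-GFP region over the body and 33.3% (26.8 to 40.6) an Arp5-3HA region, against 28.4% and 31.9% of all coding genes that are not mug genes. At their promoter windows the shares were 21.3% and 7.47%.

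Most regions counted at mug genes had a summit that lay in no other coding gene or its window. Hap2-GFP regions touched the window or body of 23 mug genes (25.3% against a background of 33.6%). A gene with several regions was counted once, by the region best placed to have a summit of its own. By this count, 18 had a summit in the mug gene or its window alone. At *mug33*, *mug106*, *mug115* and *mug155* only a region below the highest had such a summit. At 3 mug genes the summit was shared with a neighbour's body or window, and at 2 it lay in the neighbour alone. For Arp5-3HA 15 mug genes were touched (16.5% against 34.3%), of which 11 had a summit of their own, 3 a shared one and 1 a summit in the neighbour alone. Among the 1000 highest peaks of each list, 10 mug genes had a Hap2-GFP region with a summit of their own, and the side turned (10.99% against 6.11%). Among other coding genes with a region, counted in the same way, the summit was in the gene or its window alone for 67.3% (Hap2-GFP) and 69.0% (Arp5-3HA). The mug genes with a summit of their own made up 19.8% of all mug genes for Hap2-GFP, against 22.6% of the others, and 12.1% against 23.7% for Arp5-3HA.

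A summit of its own did not mean that nothing else lay under the region. At 13 of the 23 mug genes with a Hap2-GFP region, every region also covered part of another coding gene, a tRNA, rRNA, snRNA or snoRNA gene, or a long terminal repeat, which was so at 39.6% of the other coding genes with one. For Arp5-3HA it was 8 of 15 mug genes, against 38.5%. This left 8 mug genes with a Hap2-GFP region that covered none of these and had its summit in the mug gene or window alone (*mug8*, *mug33*, *mug94*, *mug116*, *mug124*, *mug133*, *mug147* and *mug153*) and 7 for Arp5-3HA (*mug8*, *mug24*, *mug33*, *mug56*, *mug93*, *mug94* and *mug115*). These were 34.8% of the mug genes with a Hap2-GFP region, against 54.6% of the other coding genes with one, and 46.7% against 59.05% for Arp5-3HA. Only *mug8*, *mug33* and *mug94* were in both groups.

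**Figure D4:**
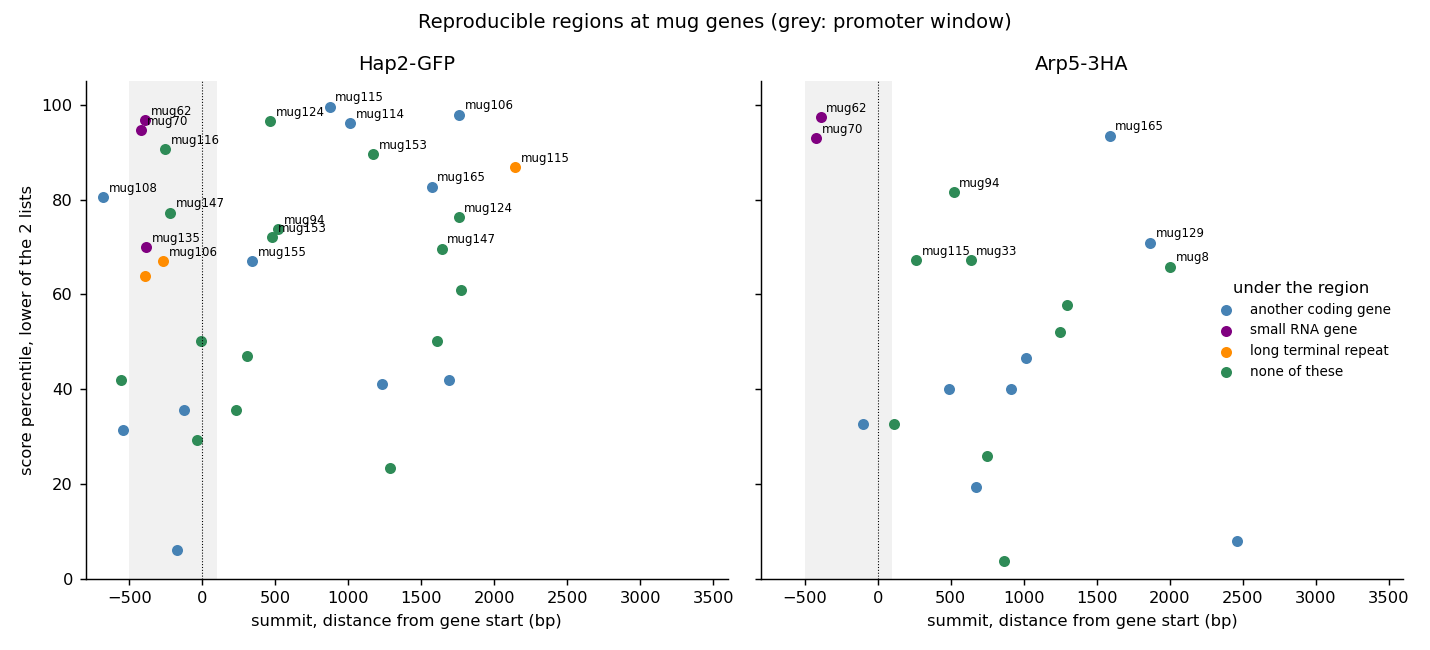
Each point is a region of both replicates at a mug gene, 33 for Hap2-GFP (left) and 19 for Arp5-3HA (right), placed by the distance of its summit from the gene start in bp and by its score percentile, the lower of its 2 lists. Colours give what else lay under the region, and symbols are written beside regions above the 65th percentile. The 2 highest upstream regions of Arp5-3HA, at *mug62* and *mug70*, covered tRNA genes, and several of the highest Hap2-GFP regions also covered another coding gene.

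The highest upstream regions, at *mug62* and *mug70*, covered tRNA genes printed above, and a lower Hap2-GFP region at *mug135* covered another. The summit of the region lay in the tRNA gene at *mug62*, and beside it at *mug70* and *mug135*. *mug62*, which encodes a putative AMP binding enzyme (SPAC22F3.04, I:697960-702755, minus strand), had peaks at the 99.5th and 96.7th percentiles of the Hap2-GFP lists and the 99.4th and 97.4th of the Arp5-3HA lists. All 4 overlapped the valine tRNA gene, which starts 392 bp from the start of *mug62*, and the regions also touched the end of *alp41*, a gene for a tubulin folding factor annotated across *mug62* on the other strand. The replicate 2 lists had a further peak inside *mug62*, at the 10.05th percentile for Hap2-GFP and the 42.1st for Arp5-3HA. *mug70* (SPAC24C9.05C, I:3045064-3047386, minus strand) stood at the 94.7th and 97.7th percentiles for Hap2-GFP and the 92.9th and 98.3rd for Arp5-3HA, over the serine tRNA gene and the end of *aco1*, an aconitase gene. *mug135* had Hap2-GFP peaks at the 77.2nd and 69.99th percentiles over the glycine tRNA gene and no Arp5-3HA peak. A tRNA, rRNA, snRNA or snoRNA gene lay under all regions of 13.0% of the mug genes with a Hap2-GFP region, and of 4.81% of the other coding genes with one. Without the genes within 1000 bp of such a gene, Arp5-3HA regions were at 3 of 85 mug windows (3.53% against 6.74%) and Hap2-GFP regions at 14 (16.5% against 18.4%).

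Other high Hap2-GFP regions were at *mug115*, *mug124*, *mug153* and *mug116*, whose coding spans take 12.7% to 35.1% of the annotated gene. *mug115* (SPAC56F8.14C, I:1148131-1151250, minus strand) is annotated over 3120 bp, of which the coding span takes 12.7%. Its Hap2-GFP peaks were at the 99.6th and 99.7th percentiles, within a region of 3160 bp whose summit lay 874 bp from the start, in SPAC56F8.13, a coding gene annotated inside it. Its Arp5-3HA peaks reached the 67.2nd and 77.9th percentiles, and one of its 2 Arp5-3HA regions had a summit in its own coding span.

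*mug124* (SPBC19C2.06C, II:1685238-1687242, minus strand), with a coding span of 21.9% of the gene, held Hap2-GFP peaks at the 99.3rd and 96.5th percentiles 466 and 486 bp from its start. It had a single Arp5-3HA peak, at the 19.4th percentile in replicate 1. *mug153* (SPACUNK4.19, I:2875545-2877487, plus strand; coding span 16.98%) held Hap2-GFP peaks at the 97.7th and 89.6th percentiles and none for Arp5-3HA. *mug116* (SPAC5D6.10C, I:1494670-1495830, plus strand, coding span 35.1%) had them at the 90.6th and 96.1st percentiles upstream of its start, with no Arp5-3HA peak either. The replicate 1 summit of *mug116* lay in the promoter window of the coding gene *mtf2* too, while the region takes its summit from replicate 2. An annotated lncRNA gene lay at the summit of the highest region of *mug124*, *mug153* and *mug116*. Over all mug genes, an lncRNA gene was at the summit of 19 of the 33 Hap2-GFP regions (57.6%) and 5 of the 19 Arp5-3HA regions (26.3%), against 44.8% and 39.97% of the regions at other coding genes.

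At *mug114* and *mug106* a neighbour of central metabolism lay under the same region. The Hap2-GFP peaks of *mug114* (98.5th and 96.1st percentiles) belong to a region of 2050 bp that also covered part of *hxk2*, a hexokinase gene, and its only Arp5-3HA peak was at the 52.2nd percentile in replicate 1. Those of *mug106* (97.9th and 98.3rd) lay in a region of 2110 bp that covered *gpm1*, a phosphoglycerate mutase gene. The replicate 1 summit lay in *gpm1*, and the higher replicate 2 summit in no coding gene or promoter window. A separate region upstream of *mug106* covered a long terminal repeat. Of the 19 mug genes whose coding span is under 50% of the annotated gene, 9 had a Hap2-GFP region at the window and 8 over the body, against 9 and 8 of the other 72. In other coding genes the same split gave 22.5% against 19.2% at the window and 33.7% against 27.5% over the body. The bound of 50% was chosen after the values were seen.

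A region in common with a ribosomal protein gene was found at the end of *mug165*. *mug165* (SPAC5D6.02C, I:1509605-1511606, plus strand) had peaks at the 87.6th and 82.7th percentiles for Hap2-GFP and the 93.5th and 94.2nd for Arp5-3HA near its end, within regions that ran into the convergent *rps2202*, a ribosomal protein gene. The Hap2-GFP region counted at *mug100* had its summit in *uvi31*, so it did not count as its own.

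The body of 7 mug genes had a peak in all 4 lists (7.69% against 23.9% of other coding genes). These were *mug115* and *mug165*, described above, and *mug8*, *mug33*, *mug93*, *mug94* and *mug129*. *mug94* (SPAC10F6.07C, I:1218321-1218887, minus strand), a gene of 567 bp whose promoter is printed above, had peaks at the 73.7th and 80.6th percentiles for Hap2-GFP and the 81.5th and 85.5th for Arp5-3HA. All 4 summits lay 461 to 561 bp from its start, in its last part, and no other coding gene lay under the regions. *mug8* (I:2445242-2447714, plus strand) gave 61.0 and 62.0 for Hap2-GFP and 79.4 and 65.8 for Arp5-3HA, also toward its end. *mug33* gave 45.8 and 64.9 for Hap2-GFP and 67.2 and 69.7 for Arp5-3HA. *mug93*, which encodes a TPR repeat protein, gave 3.14 and 36.3 for Hap2-GFP and 3.69 and 57.6 for Arp5-3HA. The Hap2-GFP peaks of the replicates did not overlap at *mug93*, so they formed no region.

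Peaks of both subunits over 1 body were counted next. At 22 mug genes (24.2%) the body held a peak in at least 1 list of each protein, against 44.9% of other coding genes. Both Hap2-GFP lists and no Arp5-3HA list had a body peak at 6 mug genes, 6.59% against 2.99%, and the reverse was found at 4, 4.40% against 5.20%. *mug106*, *mug116*, *mug147* and *mug153* were among the highest with Hap2-GFP in both lists and no Arp5-3HA peak at window or body. At *mug106*, however, both Arp5-3HA lists had a peak under its highest Hap2-GFP region, which covered *gpm1*, outside the window and body of *mug106*. Arp5-3HA regions without any Hap2-GFP peak were at *mug24*, which encodes an RNA-binding protein, and at *mug161*, a gene for a CwfJ family splicing factor, where *oct1* lay under the region. At 37 mug genes (40.7%) none of the 4 lists had a peak at window or body, against 26.5% of the others, and 12 (13.2% against 27.6%) had one in all 4.

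**Figure D5:**
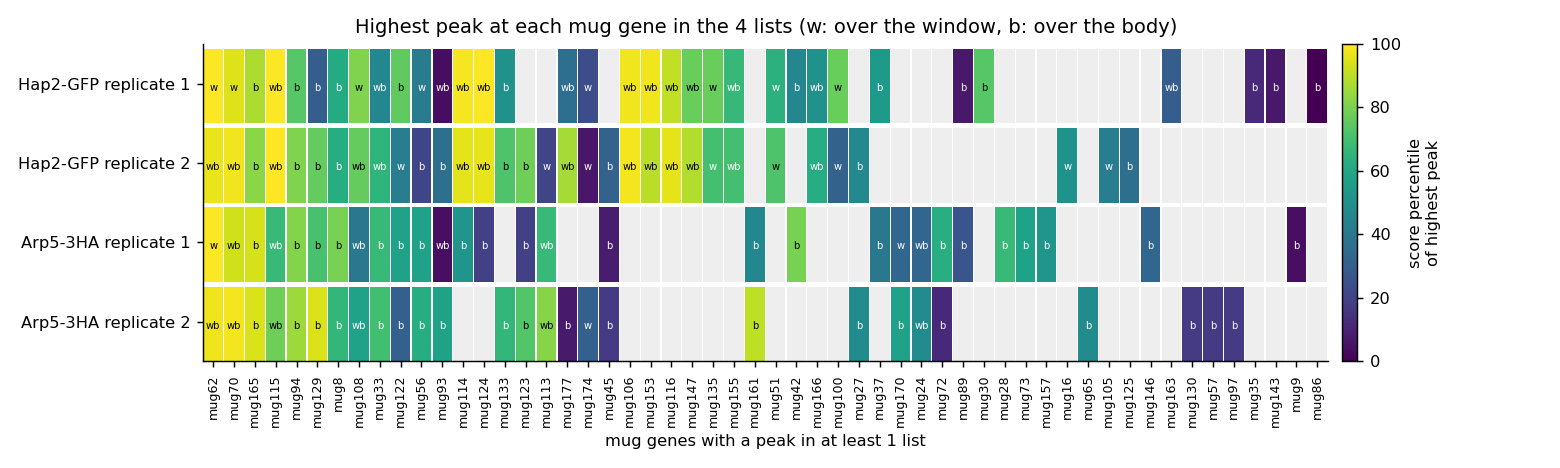
The 54 mug genes with a peak in at least 1 of the 4 lists (columns) by list (rows). Colour is the score percentile of the highest peak in that list, letters tell whether peaks overlapped the window (w) or the body (b), and grey means no peak. The first 12 columns had a peak in all 4 lists, led by *mug62*, and the last 17 had a peak in a single list.

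Few mug genes with a product named in the reference carried Hap2-GFP. Of 32 such genes none had a Hap2-GFP region over the body and 3 had one at the window, while of the 59 known only as mug proteins 16 and 15 had one. Single lists had a body peak at 5 (replicate 1) and 4 (replicate 2) of the 32. For Arp5-3HA the counts over the body were 4 of 32 and 9 of 59. Without the genes with a named product, the share of mug genes with a Hap2-GFP region over the body was 27.1%, against 28.4% of other coding genes, whereas that with an Arp5-3HA region was 15.3% against 31.9%.

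Letters bound by meiotic factors were counted on both strands of the 500 bp upstream of each start. GTAAACA was found at 46 mug genes, 50.5% against 23.9% of other coding genes, and TTCTTTGTT, the box bound by Ste11, at 4 (4.40% against 2.81%). TNAAAC, the letters bound by Mmi1 (as UNAAAC in RNA), were counted on the transcribed strand of the gene, with a median of 1.72 matches per kb in mug genes and 1.65 in the others. None of the 3 motifs contains another. A match is only a description of letters.

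Few mug genes with GTAAACA carried a Hap2-GFP region. Of these 46, 3 had a Hap2-GFP region at the window (6.52%, 2.24 to 17.5), against 15 of the 45 without it (33.3%, 21.4 to 47.9). Over the body the counts were 2 of 46 (4.35%, 1.20 to 14.5) against 14 of 45 (31.1%, 19.5 to 45.7). In other coding genes Hap2-GFP regions lay over the body of 28.4% of genes with it and 28.4% of genes without it. The single lists gave 8 (replicate 1) and 7 (replicate 2) of 46 with a body peak, and 18 of 45 in both. Both the motif and a Hap2-GFP region were found at 5 mug genes. These were *mug62* and *mug135*, where the region covered a tRNA gene, *mug94*, *mug133* and *mug174*, the coilin gene. Arp5-3HA regions lay over the body of 4 of 46 (8.70%) and 9 of 45 (20%). GTAAACA was at 20 of the 32 mug genes with a named product, 26 of the 59 others, and 4 of the 19 with a short coding span, so these splits share members, and their separate parts were not tested.

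For 34 mug genes the annotation starts at the start codon, since a complete 5′ end is annotated for 62.6% of mug genes against 88.6% of the others. Among the 57 complete ones, Hap2-GFP regions were at 21.1% of windows (19.6% of other complete genes) and over 15.8% of bodies (29.3%), and Arp5-3HA regions over 15.8% of bodies (34.2%). GTAAACA was found upstream of 45.6% of these mug genes and 23.9% of the others.

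Other genes of meiosis, together with 10 genes of the machinery that removes meiotic transcripts, made 6 lists of 90 genes in all. Hap2-GFP regions lay over the body of 16 of the 90 (17.8%) and Arp5-3HA regions over 12 (13.3%), against 28.6% and 32.2% of the coding genes in none of these lists. Among the 19 meu genes, which are also named for rising in meiosis, 6 (31.6%) had a Hap2-GFP and 2 (10.5%) an Arp5-3HA region over the body. The Hap2-GFP share of the meu genes was thus not below that of the coding genes in none of these lists. Their highest regions were at *meu15* (88.5th and 97.6th percentiles). Of 17 genes for mating and entry into meiosis, 4 (23.5%) had a Hap2-GFP region at the window, among them *ste11* (67.0th percentile) and *ste7* (74.3rd). None had an Arp5-3HA region there. Of all coding genes that are not mug genes, 19.7% and 7.83% had one at the window. Of 7 transcripts that Mmi1 removes, 3 (42.9%) had a Hap2-GFP and 2 (28.6%) an Arp5-3HA region over the body. *mei4*, which encodes the forkhead factor itself, had regions of both subunits there (86.8th and 92.9th), as did *mcp7* (57.9th and 62.8th), and *ssm4* had Hap2-GFP only.

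Of all coding genes that are not mug genes, 28.4% had a Hap2-GFP and 31.9% an Arp5-3HA region over the body, and 19.7% a Hap2-GFP region at the window. Of 20 genes of the meiotic chromosome axis, pairing and recombination, 2 (10%) had a Hap2-GFP region over the body and 2 (10%) at the window. The highest were at *rec12*, the gene of the meiotic double-strand break enzyme (88.5th), and *rec7* (82.9th). Of 19 genes of spore formation, 2 (10.5%) had a Hap2-GFP and 3 (15.8%) an Arp5-3HA region over the body. The highest Hap2-GFP region was at *isp3* (76.2nd), followed by *mde10* (73.7th). The highest Arp5-3HA region was at *mde10* (85.5th). Of 10 genes of the RNA elimination machinery none had a Hap2-GFP region over the body and 2 (20%) an Arp5-3HA region, at *mmi1* (62.8th) and *iss10* (32.7th). At the window 1 (10%) had a Hap2-GFP region, at *pab2* (88.3rd), and none an Arp5-3HA region.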

How the data were processed

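The authors called peaks in each ChIP sample by itself. MACS2 2.1.2, BWA 0.7.17, Trimmomatic 0.36 and deepTools appear in the submitters' processing notes. No source used here gives the build, the thresholds or which input went with which list. The deposited score of each peak is a whole number on an unstated scale and served only to rank peaks within a list, and the columns of enrichment and significance hold only 0. No counts are given, so depth and the precision it allows are unknown.

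Groups and replicate numbers came from the sample titles. Nothing in the labels says that replicates came from separate cultures, so their spread may be technical. Genes and sequence came from the ASM294v3 reference. Peaks on sequences named MTR or AB325691 were left out. Long noncoding, tRNA, rRNA, snRNA, snoRNA genes and long terminal repeats were taken from the same annotation. Members of the gene lists, the mug genes and the motifs were chosen with earlier results of these data known. Genes named are the 10 mug genes with the highest region of each protein, up to 5 further with a summit of their own, up to 5 with a summit in a neighbour or with 1 protein only, all with a body peak in 4 lists, and up to 4 of each other meiotic list. The overlap counts were tested on simulated peaks placed at known mug genes. Alternatives were single lists, the union of replicates, stricter scores and overlaps, summits, other windows and subsets of genes. The start codon window, the complete 5′ ends, GC classes, coding spans and the subset without named products were added after seeing the data. Python 3.11.15, numpy 2.4.6, scipy 1.17.1 and matplotlib 3.10.9 were used. The neighbours of some members are not reported here.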

Additional observations from a re-analysis of the deposited data

How the results depend on the processing

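No paired analysis was possible because no result comes from a test; shares were counted in each list. Shares are of mug genes, then of other coding genes. Over the body, mug genes were lower for Arp5-3HA in all 20 alternatives run and for Hap2-GFP in all but genes over 40% GC (66.7% against 64.4%). At windows, Hap2-GFP shares of mug genes were above the others in 6 of 13 alternatives and Arp5-3HA shares in 3 of 13. With the union of replicates body shares were 37.4% against 53.5% (Hap2-GFP) and 39.6% against 60.4% (Arp5-3HA), summits of their own 34.1% against 45.3% and 26.4% against 50.2%, and Arp5-3HA windows 9.89% against 13.9%. With 1 replicate left out, Hap2-GFP bodies ranged from 27.5% to 28.6%, Arp5-3HA bodies from 28.6% to 29.7% and Arp5-3HA windows from 7.69% to 8.79%. Arp5-3HA summits of their own ranged from 18.7% to 20.9%, and Hap2-GFP bodies of mug genes with GTAAACA from 15.2% to 17.4%. Bodies of the other meiotic and RNA elimination genes ranged from 26.7% to 33.3% (Hap2-GFP) and 33.3% to 37.8% (Arp5-3HA). With the 1000 highest peaks of each list the Hap2-GFP shares were 8.79% against 7.47% at windows, 8.79% against 9.38% over bodies and 10.99% against 6.11% for summits of their own, so the side of the other genes on which mug genes lay turned for the last. The Arp5-3HA shares were then 2.20% against 4.18%, 2.20% against 9.52% and 4.40% against 6.01%. The higher-scoring 50% of each list gave Arp5-3HA 3.30% against 6.13% at windows and 7.69% against 17.8% over bodies, and Hap2-GFP summits of their own 16.5% against 12.3%. With the summit inside the window, shares were 12.1% against 12.8% (Hap2-GFP) and 3.30% against 1.79% (Arp5-3HA). From 1000 bp upstream to the start they were 30.8% against 24.9% and 18.7% against 12.5%. Arp5-3HA windows were at 3.53% against 6.74% away from small RNA genes and 3.51% against 7.85% with complete 5′ ends. Genes with a coding span of at least 50% had Hap2-GFP at 12.5% of windows against 19.2% and 11.1% of bodies against 27.5%. Subsets of body shares gave Arp5-3HA 4.35% against 23.0% under 1000 bp, 25.9% against 42.0% over 2000 bp, 7.14% against 8.99% under 34% GC and 25% against 39.9% from 37 to 40% GC, and Hap2-GFP 7.14% against 11.9% under 34% GC and 27.1% against 28.4% without named products. The cause of these moves was not tested. Differences of a few genes cannot be read at 91 genes.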
